A study of Sus scrofa with 15 samples.

Results

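Probes for the proteasome and for ubiquitin-conjugating (E2) enzymes were followed in Longissimus muscle, the long back muscle, of pigs from lines bred for low or high residual feed intake (RFI), the feed an animal eats beyond its predicted need. Members were taken by the gene symbol printed in the array files: probes with a PSMA, PSMB, PSMC, PSMD, PSME or UBE2 symbol, without PSMB8 and PSMB9. The scanner software also had to score the probe as clearly brighter than background on 7 or more of 15 arrays. This gave 21 genes with 69 probes, out of 4192 genes named among tested probes and 43603 non-control probes, of which 31984 could be tested. All 69 probes with such a symbol cleared the limit on 15 of 15 arrays, so none lay near it and none was lost. Genes that could be named only through a synonym or a transcript identifier were not members. Among these were PSMA3, PSMB11, PSMC5, PSMD3, PSMG4, UBE2D1, UBE2D4, UBE2E2 and UBE2K. The members were 8 genes (27 probes) of the core particle, 6 genes (20 probes) of the regulatory particle and its assembly, 3 genes (4 probes) of the activator caps and 4 E2 genes (18 probes).

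The pigs weighed 20 kg and were fed ad libitum. The low_RFI line (strain RFIneg) gave 7 pigs and the high_RFI line (strain RFIpl) gave 8, with 1 pig on each array; age and sex are not in the labels used here. The numbers in the array names fell into 2 runs, 1 to 8 (8 pigs) and 55 to 62 (7 pigs), each with pigs of both lines; the labels do not say what the numbers mean. The muscle label was checked with 12 tested genes of a 14-gene list of skeletal muscle markers, whose mean level ran from 9.23 to 9.65 across pigs. Level means log2 processed signal minus the 75th percentile of its array, and differences are log2 differences of such levels. Each array had 61.7% to 79.5% of its probes above background, with no saturated spot. The tissue is a mixture of cells, so fewer cells of a type and less RNA per cell cannot be told apart.

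The proteasome degrades proteins tagged with ubiquitin. Its core particle is a barrel of alpha and beta subunits with the protease sites inside, and the regulatory particle on its ends binds, unfolds and de-ubiquitinates the substrate. E2 enzymes take activated ubiquitin and, with an E3 ligase, pass it to the substrate. In the immunoproteasome, which interferon induces, PSMB8, PSMB9 and PSMB10 replace the constitutive protease subunits, and the caps PSME1 and PSME2 open the core without ATP. In muscle this system carries much of the breakdown of contractile protein.

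Each probe is a 60-base oligonucleotide. The sequences below belong to the genes on which the results turn, and capitals mark a run shared with another probe shown; PSMB10 and PSME1 are given by their first 30 bases. Start positions count along the transcript named in the files.
PSMB10, start 878: gagctggtggaagaaactgtgcaggccatg
PSME1, start 783: tttgagaaactcaagaagcctaggggagaa
PSME2, start 512: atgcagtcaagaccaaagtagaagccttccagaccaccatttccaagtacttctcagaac
UBE2Q1, start 198: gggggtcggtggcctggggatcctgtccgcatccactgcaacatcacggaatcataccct
UBE2D2, start 268: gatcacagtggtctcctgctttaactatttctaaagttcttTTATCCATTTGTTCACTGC
UBE2D2, start 309: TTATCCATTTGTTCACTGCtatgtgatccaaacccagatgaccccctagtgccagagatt
UBE2D2, start 85: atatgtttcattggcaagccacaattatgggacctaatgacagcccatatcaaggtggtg
PSMB4, start 354: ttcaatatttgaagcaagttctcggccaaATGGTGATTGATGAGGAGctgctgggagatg
PSMB4, start 381: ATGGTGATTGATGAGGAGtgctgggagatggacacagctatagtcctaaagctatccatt

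The 3 UBE2D2 probes shown carry a transcript that the RefSeq gene table of the Sscrofa11.1 assembly names UBE2D3, a close paralogue, so which of these genes they read is uncertain. The other 2 UBE2D2 probes carry a different transcript. Across the 15 pigs the 3 probes correlated with each other at a median r of 0.92, and with the other 2 at a median of 0.48. Among all members, 23 of 138 pairs of probes of 1 gene shared a run of at least 15 bases, and these came from 7 genes. No pair from different genes did. Overlapping probes are repeated readings of 1 transcript, and below a gene stands for the brightest of its tested probes on average, called its reported probe. The reported UBE2D2 probe, at base 309, is among the 3 of uncertain gene.

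The first question was whether the lines differed. No member passed the test of the lines: 0 of 69 probes had a limma adjusted p under 0.05, against 0 of all 31984 tested probes (0%). The smallest adjusted p of a member was 0.676. At an unadjusted p under 0.05 there were 2 of 69 members (2.9%) against 6.64% of all tested probes. Direction was close to even, with 39 of 69 probes higher in low_RFI (56.5%) against 53.4% of all probes. Over genes the median difference, low_RFI minus high_RFI, was 0.032 for the core particle, 0.027 for the regulatory particle and 0.034 for E2 enzymes, against 0.012 over all tested probes.

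Of the constitutive protease subunits of the core, PSMB6 and PSMB7 were measured, and their ranges overlapped between lines. PSMB6 had a level of 5.62 ± 0.13 (SD, n = 7) in low_RFI, from 5.45 through a median of 5.61 to 5.79, and 5.51 ± 0.25 (SD, n = 8) in high_RFI, from 5.18 through 5.52 to 6.03. The low_RFI range lay inside the high_RFI range, and the difference was 0.11 ± 0.111 SE (limma adjusted p = 0.951). PSMB7 differed by 0.06 ± 0.0968 SE (limma adjusted p = 0.984). The alpha subunit PSMA5, part of the ring that gates the barrel, had the smallest p of the core genes: it ran from 3.81 through 4.05 to 4.26 in low_RFI and from 3.63 through 3.93 to 4.10 in high_RFI. These ranges overlapped, and the difference of 0.16 ± 0.101 SE did not pass (limma adjusted p = 0.854). PSMA6, PSMB3 and PSMB4, which build the rings, differed by -0.06, 0.09 and 0.00.

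In the regulatory particle, the ATPase ring subunit PSMC6 was the steadiest member. Its SD within lines was 0.09, and only 0.566% of all tested probes had a smaller one; its difference was 0.00 ± 0.0676 SE. The other ATPase, PSMC1, differed by -0.09 ± 0.157 SE. PSMD4, a ubiquitin receptor, differed by 0.07 ± 0.0936 SE, and PSMD14, the deubiquitinase of the lid, by 0.05 ± 0.123 SE. PSMD10, a chaperone of regulatory particle assembly also known as gankyrin, differed by 0.17 ± 0.146 SE (limma adjusted p = 0.934). None of these passed the test.

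PSMD1, the large scaffold subunit, held both members with an unadjusted p under 0.05, and its probes disagreed. The probe starting at base 3184 ran from 1.16 through 1.52 to 2.0 in low_RFI and from 0.55 through 0.88 to 1.76 in high_RFI, a difference of 0.49 ± 0.192 SE (limma adjusted p = 0.676). The probe at base 3223, which shares a run of 21 bases with it, differed by 0.26 ± 0.105 SE (limma adjusted p = 0.688). The other 4 PSMD1 probes differed by -0.05 to 0.08, and the reported one, at base 3042, by -0.05 ± 0.0919 SE. Between PSMD1 probes within a pig the SD was 0.197 around the mean of each probe, larger than the SD of 0.174 between pigs. For PSMB4, by contrast, the 10 probes differed between lines by -0.05 to 0.06, with an SD between probes within a pig of 0.06 and a median r between probes of 0.90.

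The caps and the E2 enzymes also did not pass between lines. PSME1 ran from 2.66 through 3.22 to 4.49 in low_RFI and from 2.59 through 2.89 to 3.89 in high_RFI, a difference of 0.25 ± 0.253 SE (limma adjusted p = 0.953). PSME2 differed by 0.16 ± 0.234 SE, PSME3, the nuclear cap, by -0.05 ± 0.111 SE, and PSMB10 by -0.16 ± 0.326 SE. Of the E2 enzymes, UBE2Q1 differed by 0.07 ± 0.108 SE and UBE2J1, an E2 of the endoplasmic reticulum, by -0.05 ± 0.165 SE. UBE2L3, which works with HECT and RBR ligases, differed by 0.04 ± 0.0791 SE, and UBE2D2, a broadly used E2, by 0.03 ± 0.125 SE over 14 pigs, since 1 spot was non-uniform and left out. No member separated the lines, against 0.0782% of all tested probes.

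**Figure D1:**
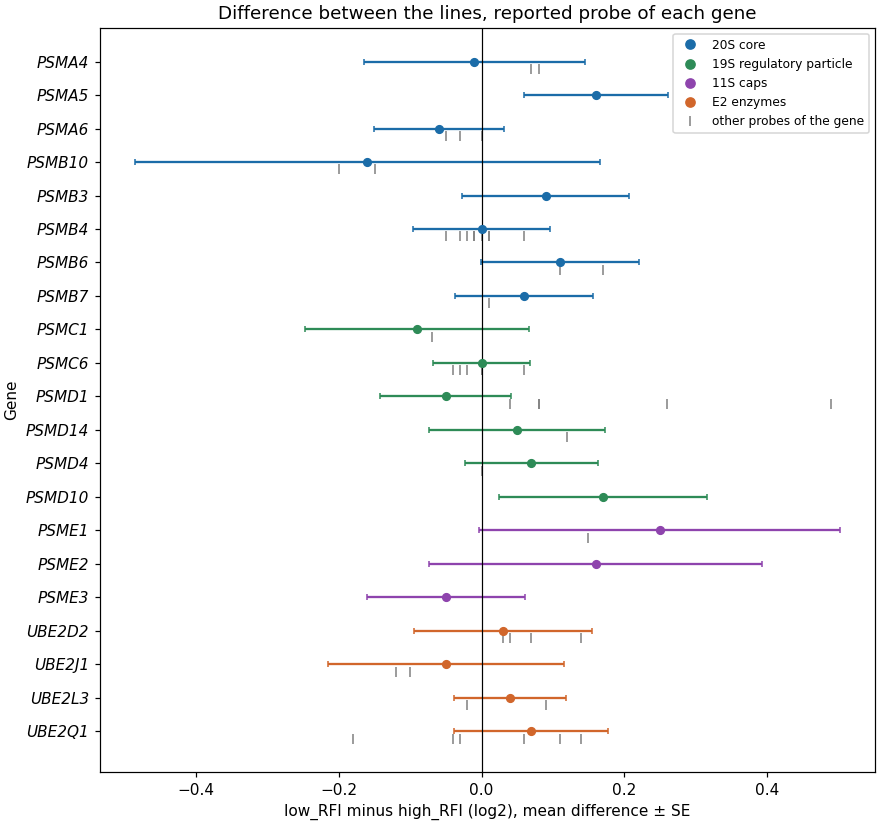
Difference between lines (low_RFI minus high_RFI, log2, horizontal axis) for the reported probe of each of 21 genes, with points for the limma difference and bars of 1 SE; grey ticks are the other probes of the gene. Points lie between -0.16 and 0.25, and the PSMD1 tick at 0.49 stands apart from the other PSMD1 probes.

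The lines aside, the pigs split by the run of numbers in the array names, and this comparison was fitted with line as a covariate. PSME1 rose by 0.74 ± 0.176 SE in pigs numbered 55 to 62 (1.67-fold, limma adjusted p = 0.0415), and a UBE2Q1 probe fell by 0.34 ± 0.0777 SE (limma adjusted p = 0.0376). These were the only members called, 2 of 69 (2.9%) against 2.28% of all tested probes, a share near the background; 1.45% of all probes were called higher and 0.829% lower. At an unadjusted p under 0.05 there were 15 of 69 members (21.7%) against 19.5%, and 46 of 69 members (66.7%) were lower in pigs numbered 55 to 62 at any p, against 56.9%. The number run is not a treatment named in the labels, and age, litter, sampling or handling were not tested.

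PSME1 had a level from 2.59 through 2.73 to 3.22 in pigs numbered 1 to 8 (mean 2.78 ± 0.21 SD) and from 2.98 through 3.30 to 4.49 in pigs numbered 55 to 62 (mean 3.50 ± 0.51 SD). The ranges overlapped at a single pair, since the pig numbered 55 to 62 was higher in 55 of 56 pairs. The second PSME1 probe rose by 0.70 and did not pass (limma adjusted p = 0.0676). The difference was positive on each of the 4 slides, at 1.02, 1.16, 0.26 and 0.63. Each slide held few pigs. On slide 2 the only pig numbered 55 to 62 was pig 5 of high_RFI, and slide 1 held pig 6 of low_RFI. These were the 2 pigs of highest PSME1 level. The call was lost when any of 10 of the 15 pigs was left out, with the difference between 0.58 and 0.82 over all 15 such fits (limma adjusted p from 0.0425 to 0.0752). It was also lost with normexp background correction (limma adjusted p = 0.0914), with no filter on dim probes (0.0725) and with no line term (0.0525).

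PSMB10, the interferon-inducible protease subunit of the core, ran from 2.46 through 2.74 to 2.85 in pigs numbered 1 to 8 and from 2.82 through 3.05 to 4.76 in pigs numbered 55 to 62. The groups overlapped little, with 53 of 56 pairs higher, but the difference of 0.78 ± 0.269 SE did not pass (limma adjusted p = 0.129). Its other probes, at bases 929 and 919, differed by 0.84 and 0.83 and did not overlap between runs. PSME2, the partner of PSME1 in the cap, ran from 3.14 through 3.46 to 3.76 and from 3.38 through 3.80 to 4.84, a difference of 0.56 ± 0.193 SE (limma adjusted p = 0.133). PSME3, which does not belong to the interferon-inducible set, differed by -0.20 ± 0.101 SE (limma adjusted p = 0.289).

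Much of this spread came from 2 pigs, 1 of each line and both numbered 55 to 62. Pig 6 of low_RFI had levels of 4.41 for PSMB10, 4.49 for PSME1 and 4.84 for PSME2, and pig 5 of high_RFI had 4.76, 3.89 and 4.69. These were the 2 highest values of all 15 pigs for each of the 3 genes. Averaged over the 3 genes and centred on each gene's mean, the pigs stood at 1.28 and 1.15, while the pigs numbered 1 to 8 ran from -0.44 to -0.13. Without both pigs, a fit chosen after seeing the data, PSME1 passed at 0.47 ± 0.101 SE (limma adjusted p = 0.0444), against 0.74 ± 0.176 SE in all 15 pigs. The PSME1 call was lost when either pig alone was left out (limma adjusted p = 0.0519 without pig 6 of low_RFI, 0.0643 without pig 5 of high_RFI). Without both, PSMB10 differed by 0.33 ± 0.105 SE (limma adjusted p = 0.127) and PSME2 by 0.25 ± 0.110 SE (limma adjusted p = 0.234). The same pigs were high for 2 other immunoproteasome subunits outside the member rule. PSMB9 ran from 1.30 through 1.72 to 1.95 in pigs numbered 1 to 8 and from 2.03 through 2.43 to 4.69 in pigs numbered 55 to 62, a difference of 1.31 ± 0.385 SE (limma adjusted p = 0.0853); without both pigs it was 0.65 (limma adjusted p = 0.0397). PSMB8 differed by 1.12 ± 0.524 SE (limma adjusted p = 0.257), and by 0.43 without both pigs.

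**Figure D2:**
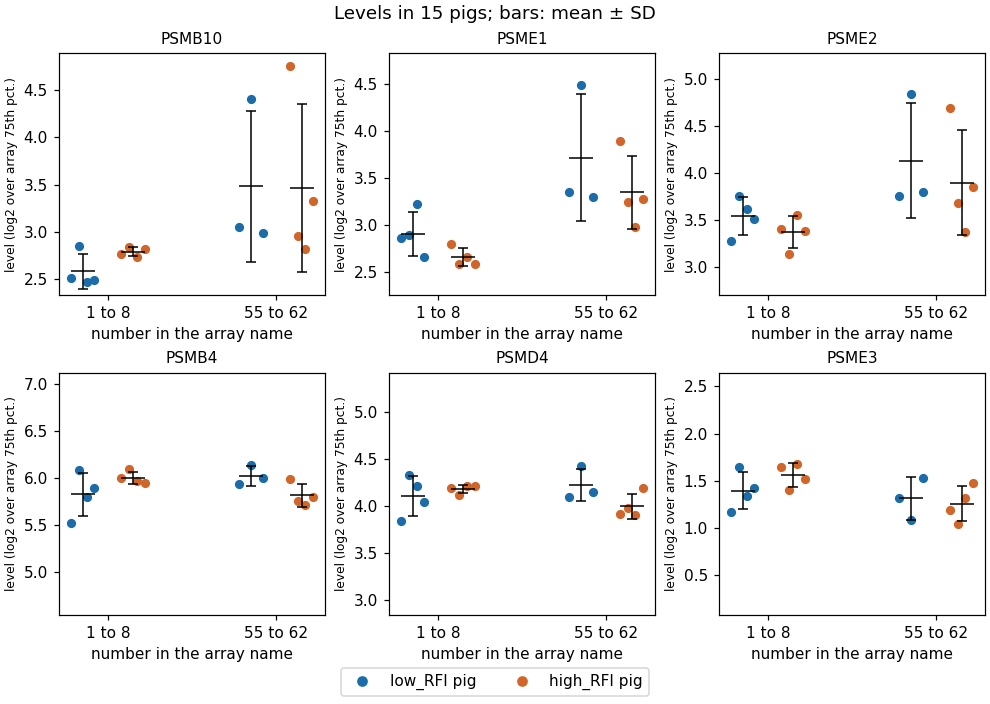
Level (log2 over the 75th percentile of the array, vertical axis) of 6 member genes in each pig, by the number in the array name and coloured by line; bars show mean ± SD, and all panels span the same height. PSMB10, PSME1 and PSME2 each have 2 pigs far above the rest among numbers 55 to 62, up to 4.76 for PSMB10, while PSMB4, PSMD4 and PSME3 do not.

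Over the 15 pigs the inducible genes moved together. Pearson's r was 0.84 for PSMB10 and PSME1 (Spearman's rho 0.70, permutation p = 0.00136 and 0.00451), 0.92 for PSMB10 and PSME2 (rho 0.74, permutation p = 0.00044 and 0.00275) and 0.92 for PSME1 and PSME2 (rho 0.84, permutation p = 1e-05, the smallest the permutations can give, and 0.00012). With PSMB9 and PSMB8 as partners of PSMB10, r was 0.96 and 0.80 (rho 0.68 and 0.52, permutation p = 5e-05 and 0.00137 for r, 0.00644 and 0.0494 for rho). Over these 5 relations the Benjamini-Hochberg values ran from 5e-05 to 0.00137 for r and from 0.0006 to 0.0494 for rho. The permutations shuffled all 15 pigs without regard to the number run, between which these genes differed. Their p-values therefore do not separate a shared run difference from a relation between pigs. Leaving out the same 2 pigs, the farthest from the median, r fell to 0.48, 0.54, 0.74, 0.66 and 0.25. Among pigs numbered 55 to 62, which hold both of them, r was 0.87, 0.96, 0.96, 0.99 and 0.95, while among pigs numbered 1 to 8 it was -0.52, -0.08, 0.48, -0.32 and -0.03. The r of PSMB10 with the others was thus negative in the first run, and it fell without the 2 pigs. The first run held 8 pigs, with PSMB10 only between 2.46 and 2.85, so r there cannot show that a relation was absent.

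The other core and regulatory genes each varied less between pigs than PSMB10, PSME1 and PSME2. The SD within lines was 0.68, 0.53 and 0.48 for those 3 genes and 0.09 to 0.31 for the other core and regulatory genes. As a description over the 15 pigs, which share each array's scaling, the median r between gene pairs was 0.25 within the core without PSMB10, 0.33 within the regulatory particle and 0.32 between them, against 0.01 over all pairs of named genes. Between PSMB10, PSME1 and PSME2 and the other core genes it was 0.11 (from -0.25 to 0.41), and with the regulatory genes 0.08 (from -0.54 to 0.42), where PSMD10 had -0.53, -0.54 and -0.42. Averaged over the 7 core genes without PSMB10, a pig's centred level ran from -0.23 to 0.21, and over the 6 regulatory genes from -0.27 to 0.30.

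Marker lists were also set against the number run. Of all 31984 tested probes, 13774 were higher in pigs numbered 55 to 62, and 463 (1.45%) were called higher. All 8 tested genes of a 9-gene interferon list were higher in pigs numbered 55 to 62, and 4 passed (ISG15, MX2, IFIT1 and IFIT3), with a median difference of 1.32; the mean level of the list ran from -0.41 to 1.13 in pigs numbered 1 to 8 and from 0.98 to 2.63 in the rest. Of a 12-gene leukocyte list 7 were tested, all 7 higher and 0 called, with a median of 0.96; the mean level ran from -1.61 to -0.94 and from -1.29 to 0.63. A list of slow fibre genes had 7 of 7 tested genes higher and 0 called, with a median of 0.60, and its mean level ran from 6.33 to 7.94 and from 7.13 to 8.31. These counts include CD14 at 0.07 and TNNC1 at 0.00, which hardly differed. The other tested lists also had 0 called. Higher in pigs numbered 55 to 62 were 5 of 7 adipocyte genes (median 0.07) and 3 of 8 endothelial genes (-0.02). The same held for 4 of 8 proliferation genes (-0.007) and 2 of 12 skeletal muscle genes (-0.09). The interferon and leukocyte lists were highest in pig 5 of high_RFI. For the leukocyte list the lead was within rounding, since the highest pig of each line stood at 0.63. Among leukocyte genes on the array, CD14, CD163, ITGB2, LCP1 and TYROBP had a probe detected above background on 15 arrays, CD3E on 14, CD8A on 13, CD4 on 6 and CD79A on 2. The part of these markers in the PSME1 difference was not tested.

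All 4 E2 genes were lower in pigs numbered 55 to 62, with a median of -0.26, against -0.039 for the core, -0.04 for the regulatory particle and -0.035 over all tested probes. None of the 4 reported probes passed. UBE2J1 ran from 1.49 through 2.09 to 2.18 in pigs numbered 1 to 8 and from 1.10 through 1.64 to 1.78 in the rest. Apart from pig 1 of low_RFI, at 1.49, every pig of the first run lay above every pig of the second; the difference was -0.46 ± 0.121 SE (limma adjusted p = 0.0595). Over the alternatives other than leaving out 1 pig the limma adjusted p ran from 0.0204 to 0.163, under the threshold in 5 of them, and leaving out 1 pig gave 0.0187 to 0.104. Within the 4 slides the difference was -0.35, -0.10, -0.76 and -0.52, where pig 5 of high_RFI was the only pig numbered 55 to 62 on slide 2. Its other probes differed by -0.21 and -0.06.

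UBE2Q1 was the E2 with the most probes. The probe starting at base 198, whose sequence is shown above, ran from 0.90 through 1.05 to 1.19 in pigs numbered 1 to 8 and from 0.54 through 0.74 to 0.87 in pigs numbered 55 to 62, with no overlap. It was lower on each of the 4 slides, by -0.50, -0.27, -0.34 and -0.31, though on slide 2 the second run was pig 5 of high_RFI alone. The probe was also lower in the second run within each line, by -0.22 in low_RFI and -0.44 in high_RFI. The reported UBE2Q1 probe differed by -0.29 ± 0.0809 SE (limma adjusted p = 0.0728), and over the 7 probes the difference ran from -0.34 to 0.02. The call of the probe at base 198 was lost in 12 of 15 fits that left out 1 pig, with the difference between -0.37 and -0.31 (limma adjusted p from 0.025 to 0.0744). It was also lost with normexp (limma adjusted p = 0.235), with median scaling (0.0761), with no filter on dim probes (0.0706) and without the 2 pigs named above (-0.34 ± 0.0907 SE, 0.086). UBE2D2 differed by -0.23 ± 0.114 SE (limma adjusted p = 0.288) and UBE2L3 by -0.05 ± 0.0789 SE (limma adjusted p = 0.743). That UBE2D2 probe may read UBE2D3, and the UBE2D2 probes that carry a different transcript differed by -0.13 and -0.10.

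**Figure D3:**
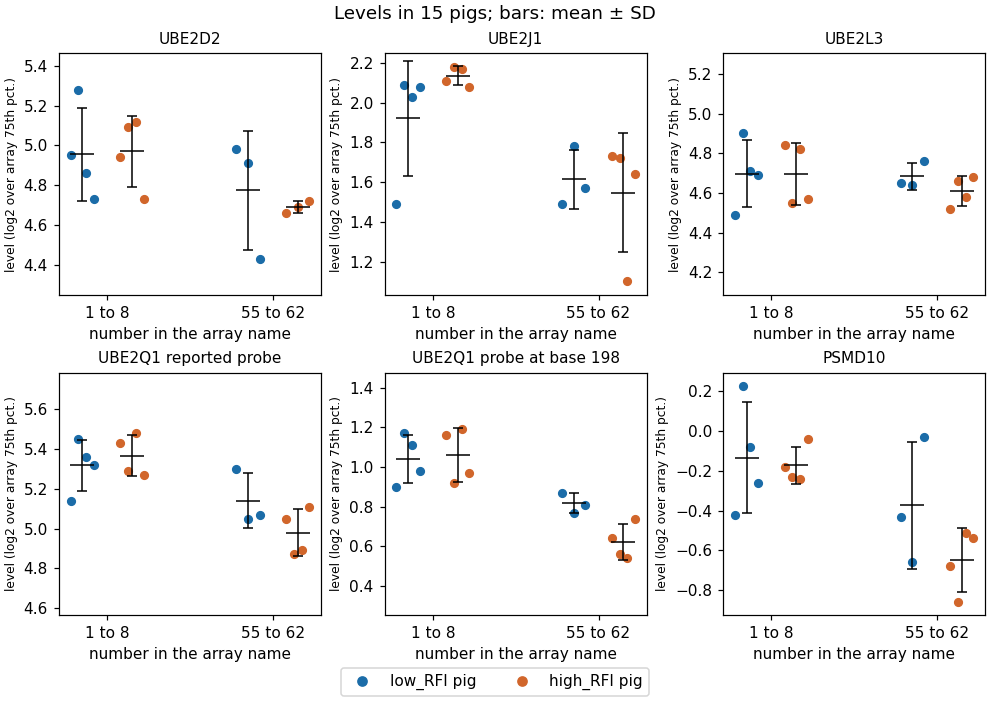
Level (log2 over the 75th percentile of the array, vertical axis) of the 4 E2 genes, a second UBE2Q1 probe and PSMD10 in each pig (14 pigs for UBE2D2), by the number in the array name and coloured by line; bars show mean ± SD. The UBE2Q1 probe at base 198 lies at 0.90 or above in numbers 1 to 8 and at 0.87 or below in numbers 55 to 62.

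The regulatory particle and the constitutive core gave no call between the number runs. PSMD10 had the smallest p: it ran from -0.42 through -0.21 to 0.23 and from -0.86 through -0.54 to -0.03, a difference of -0.37 ± 0.117 SE (limma adjusted p = 0.104). The ATPases PSMC1 and PSMC6 differed by -0.08 and 0.04, the receptor PSMD4 by -0.04 and the deubiquitinase PSMD14 by -0.04. Of the core, PSMB6 differed by -0.15 ± 0.107 SE and PSMA6 by -0.11 ± 0.0884 SE, both short of the threshold, and PSMB4 by -0.01 ± 0.0985 SE. PSMA4 differed by 0.16 at its reported probe, whose r with the other 2 PSMA4 probes was -0.06, and those probes, which correlated at 0.95, were lower. In all 3 of 69 probes did not overlap between runs (4.35%), against 0.857% of all tested probes: the PSMB10 probes at bases 929 and 919, which share 50 bases and so are nearly 1 reading, and the UBE2Q1 probe at base 198.

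**Figure D4:**
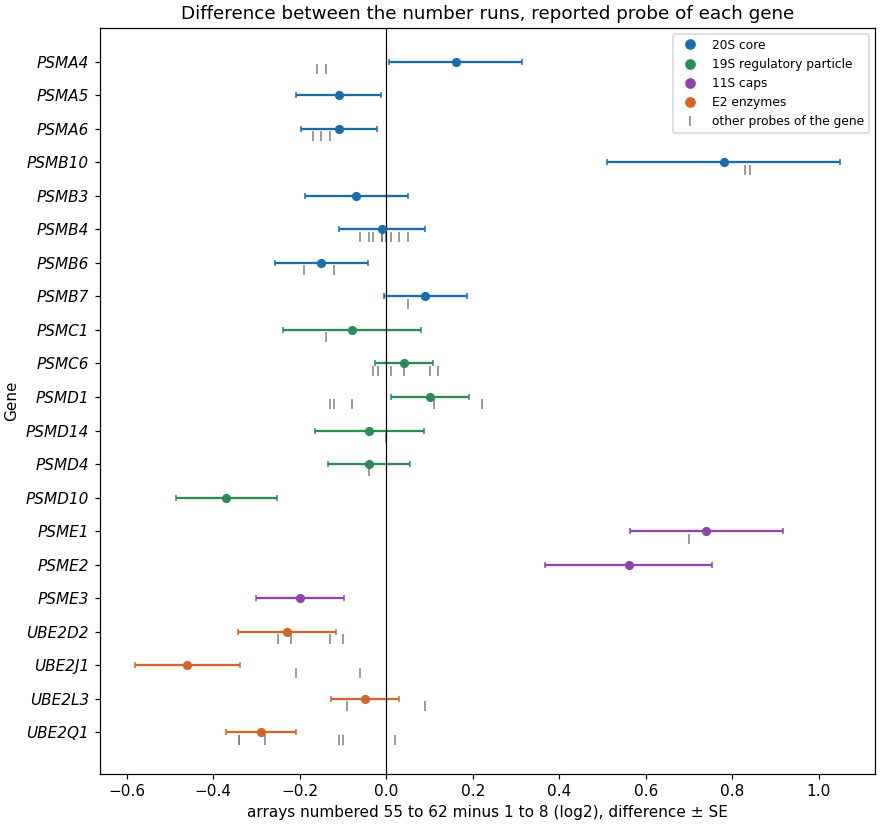
Difference between number runs (55 to 62 minus 1 to 8, log2, horizontal axis, with line as a covariate) for the reported probe of each of 21 genes, with bars of 1 SE; grey ticks are the other probes of the gene. PSMB10, PSME1 and PSME2 lie at 0.56 to 0.78, and all 4 E2 genes lie below 0.

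Whether the line difference varied between number runs was tested with an interaction term. No member passed (0 of 69), and no tested probe did (0%); at an unadjusted p under 0.05 there were 4 members (5.8%) against 5.61%. The fitted term was positive for 58 of 69 member probes (median 0.20), against 16032 of all 31984 tested probes (median 0.001). A positive term means a larger low_RFI minus high_RFI difference in pigs numbered 55 to 62. By gene it was positive for 19 of 21 members. Probes of a gene and genes of the same pigs are not independent readings, so the count does not measure an excess. Pig 1 of low_RFI, in the first run, had the lowest mean of the core without PSMB10 (-0.23) and of the regulatory particle (-0.27). The part of this pig in the count was not tested. The reported probe of smallest p was that of PSMB4, picked for that p, which differed between lines by -0.18 in numbers 1 to 8 and by 0.21 in numbers 55 to 62 and did not pass (limma adjusted p = 0.878).

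**Figure D5:**
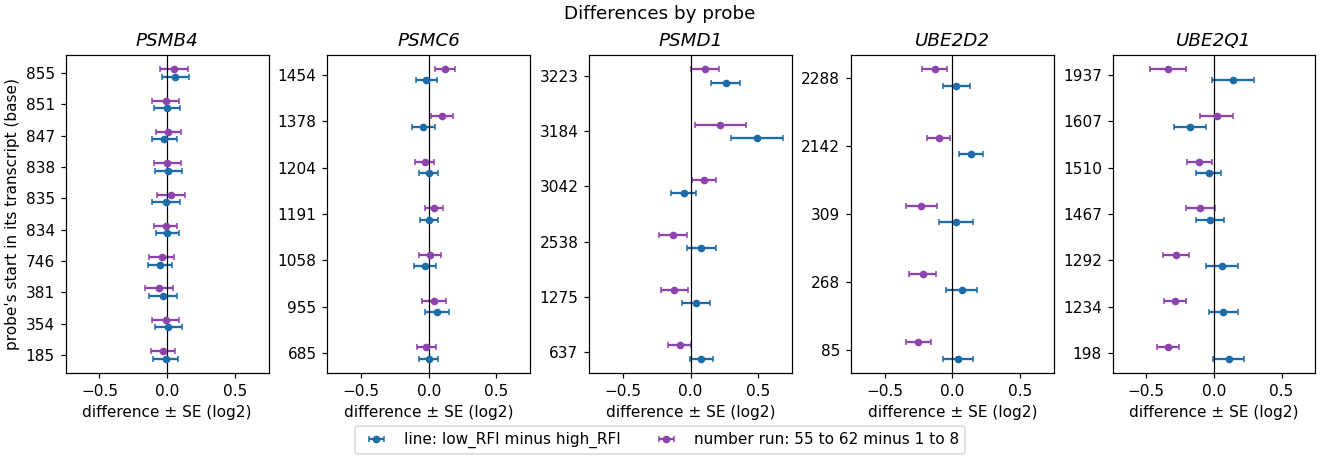
Difference between lines (blue) and between number runs (purple), in log2 with bars of 1 SE, for every probe of 5 genes ordered by its start in the transcript. The 10 PSMB4 probes agree near 0, and 2 of the 6 PSMD1 probes stand apart in the line comparison.

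Beyond the members, a list of 95 other gene symbols of the ubiquitin-proteasome pathway, some of them aliases of 1 gene, had 20 tested genes. Among them were PSMB8, PSMB9, PSMC5, PSMD3, UBE2K, the ubiquitin gene UBB, the segregase VCP and the E3 ligase HUWE1. Of the 20, 12 were higher in low_RFI and 8 were higher in pigs numbered 55 to 62, and 0 passed in either comparison with limma. The 8 include PSMB8 and PSMB9, described above. UBE3B, an E3 ligase, differed by -0.32 ± 0.112 SE between lines (limma adjusted p = 0.591), and PSMG4, an assembly chaperone of the core, by 0.26 ± 0.0818 SE (limma adjusted p = 0.535). UBE2D1, a paralogue of UBE2D2, differed between number runs by -0.40 ± 0.135 SE (limma adjusted p = 0.119) and UBE2E2 by -0.26 ± 0.105 SE (limma adjusted p = 0.184). These 4 were picked out after their values were seen. Of the remaining E2 genes of that list, UBE2K differed between number runs by -0.07 ± 0.095 SE (limma adjusted p = 0.734). UBE2D4 went the other way, by 0.15 ± 0.151 SE (limma adjusted p = 0.602). PSMB5, UBE2C, UBE2S, UBE2T, UBE2M and UBE2L6 were not analysed here, since no probe carried their symbol.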

How the data were processed

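Total RNA (150 ng per pig) was amplified with Cy3 labelling, per the labels' protocols. Intensity values are processed signals of Feature Extraction 10.7.3.1, background-subtracted and not normalized between arrays, per the file headers. The other columns are flags, per the file headers. The deposited table of log2 values equals log2 processed signal minus the array's median over its 29364 spots (largest difference 4.93e-08); R 2.10.0 is named in the submitters' processing notes.

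Control and non-uniform spots were dropped, and spots of a probe averaged. A probe was tested if well above background on at least 7 of 15 arrays with at least 4 values per line. Lines, number runs (with line) and their interaction were fitted with limma 3.58.1 (with statmod 1.5.0, version 1.17.8 of the data.table package and R 4.3.3), two-sided, with Benjamini-Hochberg adjustment over 31984 probes and calls at 0.05. Correlations used 100000 permutations over all 15 pigs, two-sided, without regard to the number run. Fits were tested on simulated data. Each pig is a separate animal per the labels, and their number limits the precision (median SE of the line difference 0.11 over member genes). Of the 43603 non-control probes, 10586 were counted with 1 gene symbol and 32680 with several or none. These counts do not cover every probe. Replicate numbers were not used as pairs in the main fits. The r of deviations from line means between pigs of 1 number ran from -0.01 to 0.27. These deviations also carry the number run, so this r cannot settle whether the numbers pair pigs.

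Members and gene lists were chosen with earlier results of these data known. Genes were named by rule: every called member, in each role those of smallest p, the protease and inducible subunits, the others by range.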

Additional observations from a re-analysis of the deposited data

Results flagged for a closer look

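In 6 of 42 gene-by-line groups the highest pig lay far from the others, where chance gives about 1 in 20 independent groups. These groups are not independent: 5 of the 6 are the same 2 pigs in 3 genes that correlate across pigs, so the count does not measure an excess. Pig 6 of low_RFI was highest for PSMB10 at 4.41 (next 3.05), for PSME1 at 4.49 (next 3.35) and for PSME2 at 4.84 (next 3.80). Pig 5 of high_RFI was highest for PSMB10 at 4.76 (next 3.33) and for PSME2 at 4.69 (next 3.85). Pig 2 of high_RFI was highest for PSMB6 at 6.03 (next 5.58).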

How the results depend on the processing

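The count of members called was 0 for lines and for the interaction under every alternative run. For the number run it was 2, and became 0 with normexp and with no filter on dim probes. It was 1 with median scaling, with the mean of a gene's probes, with no line term and without pigs low_RFI 6 and high_RFI 5. With slide as a fixed block, and with only probes well above background on all arrays, it was 3. It was 4 with a robust, trended fit and with slides as random effects, and 5 with array weights. Leaving out 1 pig gave 0 to 4, with 4 only without low_RFI 1 and 2 only without low_RFI 5. The cause was not tested. Over all probes the run count of 728, 63.6% of it higher in pigs numbered 55 to 62, became 65 (90.8% higher) with normexp, 379 with no filter, 1178 and 1181 with slide as a fixed and a random block and 1471 with array weights; with 1 value per gene, and so fewer tests, it was 163 or 168.

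The line median of the regulatory particle was -0.119 within numbers 1 to 8; within slide 1 the core and regulatory medians were 0.254 and 0.298, and within slide 2 -0.341 and -0.16. For the number run the regulatory median was -0.283 within slide 1 and the core median 0.131 within slide 2. On slide 2, pig 1 was the only low_RFI pig, and pig 5 of high_RFI was the only pig numbered 55 to 62.

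Line differences near 0 changed sign. Normexp, which moved the median of all probes to -0.065 for lines and -0.104 for runs, gave PSMA6 0.026, PSMA4 0.045, PSMC6 0.042 and PSMD1 0.016, and for the run PSMD4 0.013. PSMC6 was 0.005 with median scaling, 0.001 with non-uniform spots kept and 0.003 with slide as a fixed block. Array weights gave PSMA4 0.036, PSMC6 0.014 and PSMD14 -0.004; the mean of a gene's probes gave PSMA4 0.045 and PSMD1 0.153; number run as a block gave PSMA4 0.002 and PSMC6 0.002. The replicate block gave 0 calls, PSMA4 0.003 and PSMC6 0.004, and replicate numbers are known only from the sample titles. Within numbers 1 to 8, PSMA4 was 0.095, PSMB3 -0.035, PSMC6 0.033, PSMD4 -0.077, PSMD14 -0.163 and UBE2Q1 -0.049; within 55 to 62, PSMC1 was 0.011, PSMD1 0.099, PSME3 0.053, UBE2J1 0.061 and PSMB10 0.015. Without both pigs PSMC6 was 0.026 and PSMD4 -0.004. Over fits without 1 pig or without those 2, PSMD4 ran from -0.004 to 0.118 and, for the run, PSMC1 from -0.208 to 0.004. Leaving out 1 pig gave PSMA4 -0.097 to 0.052, PSMC1 -0.187 to 0.005, PSMC6 -0.022 to 0.019, PSMD1 -0.098 to 0.005, PSME2 -0.017 to 0.307 and PSMB10 -0.401 to 0.072.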
